A study of Homo sapiens with 4 samples.

Results

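The ADAM and ADAMTS metalloproteinases were followed in A375 human melanoma cells as 45 protein-coding genes, out of 2258 protein-coding genes and 2864 genes with values in all. They were chosen by name and gene type alone, as the protein-coding genes whose symbol is ADAM, ADAMDEC, ADAMTS or ADAMTSL followed by a digit, but the family was singled out with earlier results of these data known, so its values are given as a description. There were 4 RNA libraries, 1 per condition, of the same cell line, labelled wild type for genotype. A375P were parental cells without treatment, and A375R was the vemurafenib-resistant strain, established under rising concentrations of vemurafenib. A375+DMSO were A375 cells given 1‰ of the solvent DMSO and A375+VEM were A375 cells given 2 μM vemurafenib, these 2 over 48 h. The labels used here give no dose or time for A375R, so whether vemurafenib was present at its harvest is not known here. The drug blocks the BRAF kinase. A375R is a single strain, and since each condition is 1 library, differences are described without a replicate check or a p-value. The culture given DMSO is also called the solvent culture below. Since the libraries are of whole cultures, fewer cells making a transcript and less transcript per cell cannot be told apart. The study compared A375R with A375P, for lasting resistance, and A375+VEM with A375+DMSO, for the acute response.

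ADAMs are membrane-anchored proteases with a metalloproteinase and a disintegrin domain. Those with an intact active site cut other membrane proteins close to the cell surface, which releases growth factors, cytokines and receptor ectodomains, while others have lost the active site and act in cell adhesion. ADAMTS proteases are secreted, carry thrombospondin type 1 repeats and act on the extracellular matrix, cutting proteoglycans such as aggrecan and versican, trimming procollagens or cutting von Willebrand factor. ADAMTS-like proteins share the repeats but have no protease domain. In melanoma, ADAM10 and ADAM17 are known for shedding adhesion molecules, growth factors and receptor tyrosine kinases from the cell surface.

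Values are read counts and TPM. TPM corrects the count for gene length and library size, so levels of different genes can be compared on it. The genes at hand are an alphabetical part of the gene list whose counts summed to between 1891215 and 2054277 per library, which is not the depth of the libraries. A gene was compared between 2 libraries when its TPM was at least 1 in at least 1 of them, and called higher or lower past 1.5-fold on the scale of (TPM + 0.1). Log2 ratios are on that scale, which shrinks the ratios of low genes, and folds are ratios of TPM without the 0.1. Intervals in brackets are 95% Clopper-Pearson intervals of a fold, taken from the read counts of both libraries, and cover counting error only. Pigment cell genes summed to a TPM of 74.5, 81.1, 36.6 and 59.6 in A375P, A375R, the solvent culture and A375+VEM. The sums of A375P and A375R hide opposite courses. ASAH1 had a TPM of 32.4 in A375P and 15.9 in A375R, BCAN 34.1 and 27.6, and BCL2A1 7.67 and 37.5. Of the pigment cell genes, ASAH1, BCAN and BCL2A1 reached a TPM of 4.24 or more in every library. BIRC7 was between 0.09 and 1.66, and other defining genes of the lineage were not analysed here. B cell genes summed to a TPM of 0.113 to 1.01 and macrophage genes to 0.233 to 0.641, with C1QA at 0 reads throughout. The hepatocyte genes ALB, AHSG, APOA1 and APOC3 were all 4 present in every library, with a summed TPM of 88.9 in A375P, 72.2 in A375R, 64.6 in the solvent culture and 65.3 in A375+VEM. Of 3 smooth muscle or fibroblast genes, ACTA2 had its highest TPM, 92.2, in A375P against 28.3 to 40.1 elsewhere, and ACTG2 and ASPN stayed at or below 9 reads. The part of these markers in the results below was not tested.

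Of the 45 genes, 28 reached a TPM of 1 in at least 1 library and 17 stayed below it in all. A set of 4 ADAM sheddases held at least 50.4% of the family's TPM in every library, without always being its 4 highest-ranked genes. ADAM9, ADAM10, ADAM15 and ADAM17 together made up a summed TPM of 246 in A375P, 315 in A375R, 331 in the solvent culture and 326 in A375+VEM. That was 75.8% of the TPM of all 45 genes in A375P, 64.3% in A375+DMSO, 50.4% in A375R and 52.9% in A375+VEM. Single genes that were low in A375P took larger shares elsewhere. ADAM19 alone held 22.4% of the family's TPM in A375R, against 1.18% in A375P, 5.02% in A375+DMSO and 2.31% in A375+VEM. ADAMTS15 held 10.9% in A375+VEM, against 0.120% in A375P, 0.437% in A375+DMSO and 0.379% in A375R. By level ADAM19 ranked 12 among the 45 in A375P, 6 in A375+DMSO, 9 in A375+VEM and 1 in A375R. ADAMTS15 ranked 29 in A375P, 20 in A375R, 22 in the solvent culture and 3 in A375+VEM. The highest-ranked gene was ADAM15 in A375P and A375+DMSO and ADAM10 in A375+VEM.

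**Figure D1:**
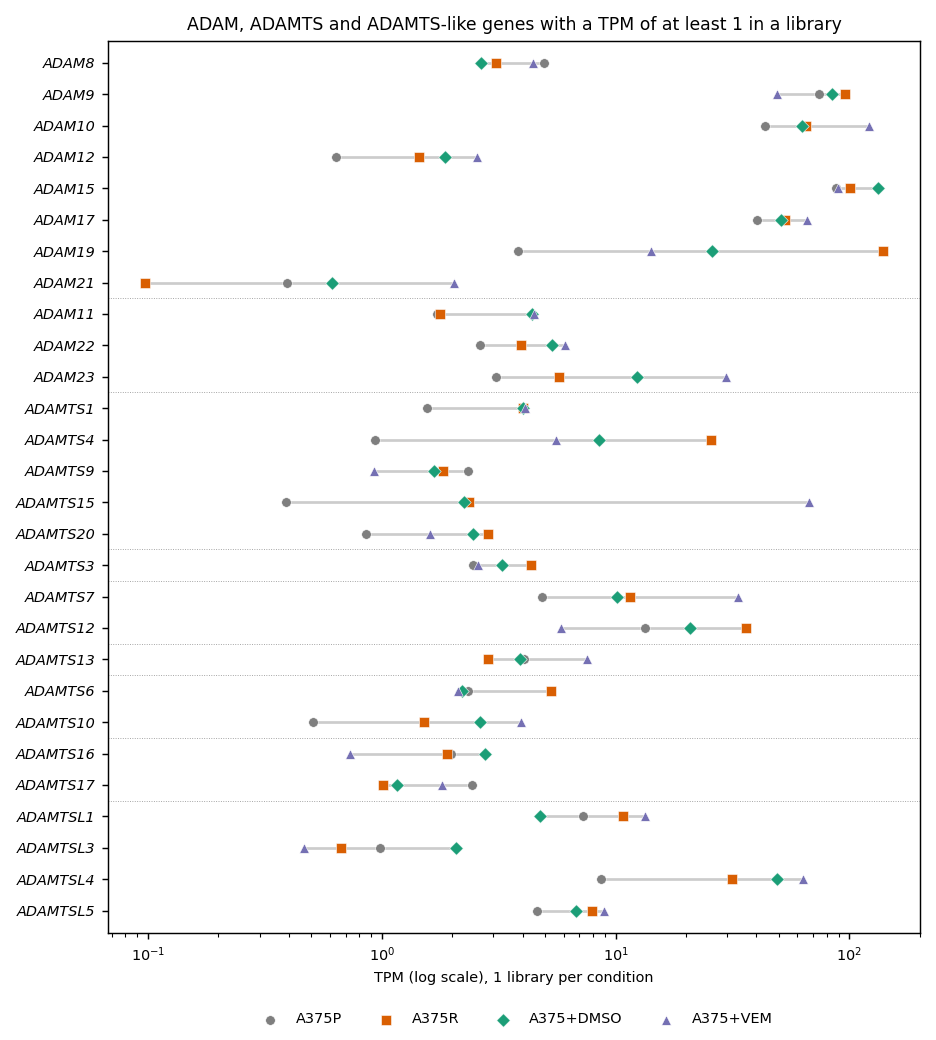
TPM (log axis) of the 28 genes that reached 1 TPM somewhere, with 1 symbol per library, a grey line from the lowest to the highest value, and dotted lines between subfamilies. ADAM19 spans 3.82 to 140 and ADAMTS15 spans 0.391 to 67.5, while ADAM15 and ADAM17 stay within a narrow range.

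A375P was the lowest of the 4 libraries for 17 of the 28 genes, A375R for 3, A375+DMSO for 2 and A375+VEM for 6, beside 37.4%, 18.2%, 14.9% and 29.6% of the 1817 genes at that level. A375+VEM was the highest for 15, A375R for 7 and each of the others for 3, beside 40.1% for A375+VEM, 20.9% for A375R, 26.7% for A375P and 12.3% for A375+DMSO over all genes. Against A375P, 14 of 26 genes compared were higher in A375R and 2 were lower, where 26.8% and 17.5% of all genes compared were, or 44.3% in either direction. Of those 14, ADAM12, ADAMTS4, ADAMTS15, ADAMTS20 and ADAMTS10 were compared only because A375R was high, since they were below a TPM of 1 in A375P. The median log2 ratio of the 26 was 0.79, beside 0.10 over all 1689 genes. The solvent culture also differed from A375P. From A375P to A375+DMSO, both without vemurafenib, 15 of 27 were higher and 3 lower, beside 26.8% and 18.9% of all genes and 45.7% in either direction, with a median of 0.64 beside 0.09. Of those 15, ADAM12, ADAMTS4, ADAMTS15, ADAMTS20, ADAMTS10 and ADAMTSL3 were compared only because A375+DMSO was high. With A375+DMSO as the control of A375R, 5 of 27 were higher and 5 lower, beside 10.5% and 9.99% of all genes and 20.5% in either direction, and the median was 0.06 beside 0.02. These comparisons share libraries and are not independent of each other.

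In the acute pair the family went both ways, as did all genes compared. From A375+DMSO to A375+VEM, 9 of 28 genes were higher and 8 lower, beside 26.5% and 19.7% of all genes compared and 46.2% in either direction, with a median log2 ratio of 0.27 beside 0.11 over all 1784 genes. ADAM21 was compared only through A375+VEM, and ADAMTS9, ADAMTS16 and ADAMTSL3 only through A375+DMSO. With A375P as the control of A375+VEM, 18 of 27 were higher and 4 lower, beside 36.9% and 25.3% of all genes and 62.1% in either direction. There, ADAM12, ADAM21, ADAMTS4, ADAMTS15, ADAMTS20 and ADAMTS10 were compared only through A375+VEM, and ADAMTS9 and ADAMTS16 only through A375P. The whole counting interval was past 1.5-fold for 13 of the 26 genes in A375R against A375P and for 12 of the 28 in A375+VEM against A375+DMSO, beside 27.2% and 30.8% of all genes. It was so for 14 of 27 in A375+DMSO against A375P, 8 of 27 in A375R against A375+DMSO and 20 of 27 in A375+VEM against A375P, beside 30.4%, 9.17% and 47.8%.

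Since the 2 libraries without vemurafenib differed, the genes past 1.5-fold against both of them were taken as a second reading, chosen after the data had been seen. In A375R 4 of 26 genes were higher than in both, ADAM19, ADAMTS4, ADAMTS12 and ADAMTS6, beside 5.63% of all genes. None was lower than in both, beside 2.00% of all genes. In A375+VEM 7 of 27 genes were higher than in both, namely ADAM10, ADAM21, ADAM23, ADAMTS7, ADAMTS13, ADAMTS15 and ADAMTSL1, beside 21.4% of all genes. ADAM9, ADAMTS9, ADAMTS12 and ADAMTS16 were lower in A375+VEM than in both, beside 13.8% of all genes. ADAMTS12 was thus the gene on both lists, higher in A375R and lower in A375+VEM than in either culture without the drug. The share of all genes with that pattern was not counted, so how unusual it is cannot be said. Of the genes on these lists, ADAM21 was compared only through A375+VEM with either control. Against A375P, ADAMTS4 was compared with A375R only through A375R, and ADAMTS15 with A375+VEM only through A375+VEM. ADAMTS9 and ADAMTS16 were compared with A375+VEM only through the control, whichever it was.

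**Figure D2:**
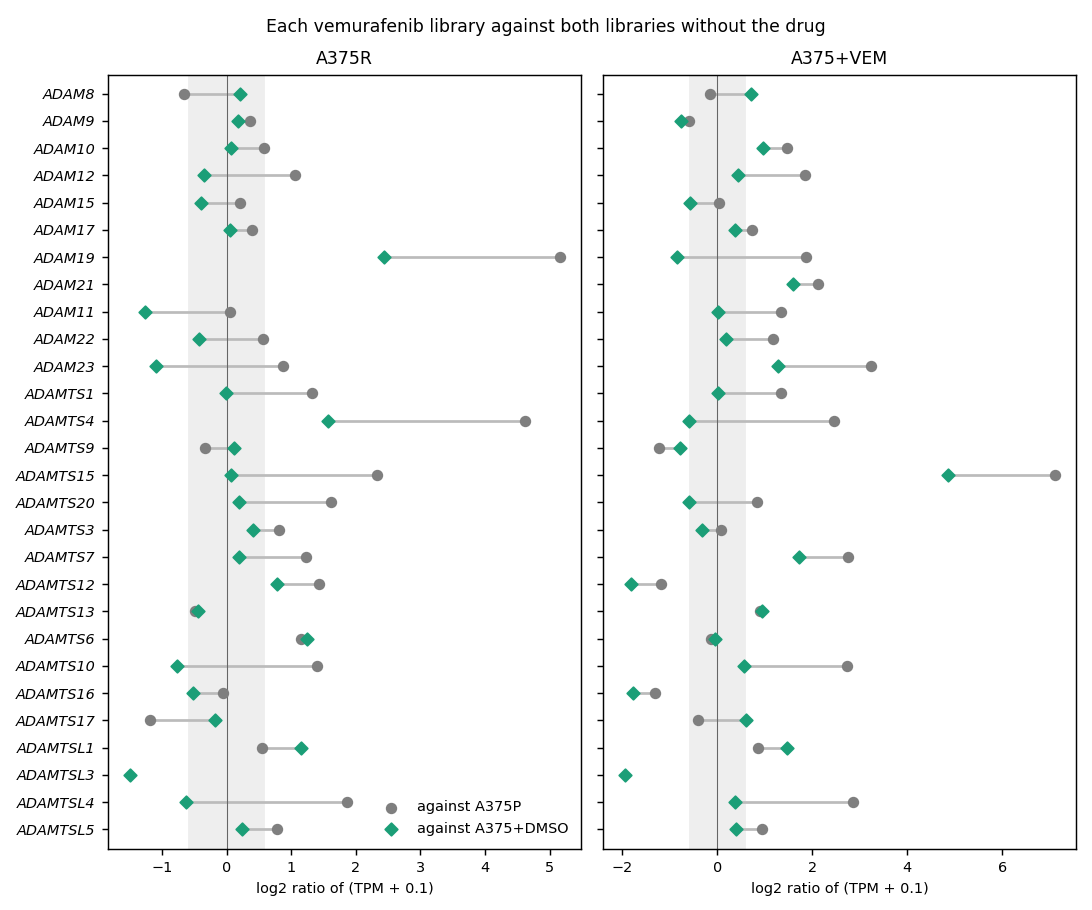
Log2 ratio of (TPM + 0.1) of A375R (left) and A375+VEM (right) against A375P (grey circles) and against A375+DMSO (green diamonds) for the 28 genes, with the band within 1.5-fold in grey and no point where neither library reached a TPM of 1. ADAM19, ADAMTS4, ADAMTS12 and ADAMTS6 lie right of the band with both controls on the left side, and ADAMTS15 is farthest right on the other.

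The sequences just before the start sites of 4 of these genes are shown, picked after the values were seen. Of them, 3 were above both cultures without the drug in A375R, and ADAM10 was so in A375+VEM. ADAMTS4, also above both in A375R, is not among those shown. A promoter entry was found for 29 of the 45 in the RefSeq table on GRCh38.p14. Each is the 250 bases before the annotated start, 5′ to 3′ on the gene's strand, in lower case with matches of 4 motifs on either strand in capitals. The motifs were TGANTCA, bound by AP-1, GGAATG, bound by TEAD factors, the partners of YAP and TAZ, CACGTG, an E-box, and TGACGTCA, the cAMP response element. The first 3 genes were highest in A375R and ADAM10 was highest in A375+VEM.
ADAM19, chr5:157575776-157576025, minus strand: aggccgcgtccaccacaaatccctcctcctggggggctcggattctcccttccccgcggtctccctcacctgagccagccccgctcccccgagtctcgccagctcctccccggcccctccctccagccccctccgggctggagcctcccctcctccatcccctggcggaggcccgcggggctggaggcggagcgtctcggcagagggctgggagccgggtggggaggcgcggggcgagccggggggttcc
ADAMTS12, chr5:33891991-33892240, minus strand: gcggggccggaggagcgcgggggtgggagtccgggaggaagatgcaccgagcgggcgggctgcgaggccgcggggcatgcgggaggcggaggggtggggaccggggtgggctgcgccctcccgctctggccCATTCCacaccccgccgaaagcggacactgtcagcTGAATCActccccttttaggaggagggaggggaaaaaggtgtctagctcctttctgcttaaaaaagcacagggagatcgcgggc
ADAMTS6, chr5:65481921-65482170, minus strand: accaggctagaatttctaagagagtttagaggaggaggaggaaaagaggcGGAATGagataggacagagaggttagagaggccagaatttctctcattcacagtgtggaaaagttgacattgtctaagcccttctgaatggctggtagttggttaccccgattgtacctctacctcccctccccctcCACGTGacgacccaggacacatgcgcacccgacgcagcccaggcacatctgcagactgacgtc
ADAM10, chr15:58749708-58749957, minus strand: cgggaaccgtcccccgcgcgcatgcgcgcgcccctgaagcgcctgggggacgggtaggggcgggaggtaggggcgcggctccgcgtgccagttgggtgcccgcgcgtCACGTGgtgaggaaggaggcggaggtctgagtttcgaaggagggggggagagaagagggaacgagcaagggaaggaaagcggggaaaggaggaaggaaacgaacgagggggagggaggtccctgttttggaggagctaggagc
ADAM19 has a GC content of 76.4% in this window and no match. The median GC content was 73.6% over the 29 windows found for the family and 58% over all promoters. ADAMTS12 has a loose AP-1 match, TGAATCA, from 84 to 78 bases before the start. It also has a TEAD match, on the other strand, from 119 to 114. ADAMTS6 has a TEAD match from 200 to 195 bases and an E-box from 63 to 58 bases before the start, and ADAM10 has an E-box from 143 to 138. Among the 29 windows, 1 held TGANTCA, 4 the TEAD letters, 4 the E-box and 0 the cAMP response element. The shares among 35116 promoters of the same length were 6.57%, 11.9%, 6.34% and 1.65%, without account of their lower GC content. No match says only that these letters are not in this window. Whether a match has any part in the level of its gene was not tested.

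ADAM19, or meltrin beta, is a sheddase that processes neuregulins and acts in heart development. In the authors' coordinates on hg19 it spans bases 156904312 to 157002831 of chromosome 5, and its window above has no match to any of the 4 motifs. ADAM19 had 214 reads in A375P, 7079 in A375R, 1348 in the solvent culture and 737 in A375+VEM, or a TPM of 3.82, 140, 25.8 and 14.2. A375R was far above the other 3, and A375P far below them. These 2 were 36.6-fold apart (32.0 to 42.2). The level in A375+DMSO was 6.75-fold that in A375P (5.84 to 7.84). Against A375+DMSO it was 5.42-fold higher in A375R (5.12 to 5.75) and at a ratio of 0.551 in A375+VEM (0.503 to 0.603). Against A375P, A375+VEM was 3.72-fold higher (3.19 to 4.35), so the direction in A375+VEM depends on the control.

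The 4 abundant sheddases moved less. ADAM10, which cuts Notch receptors and is the main alpha-secretase of the amyloid precursor protein, had a TPM of 43.7 in A375P, 65.3 in A375R, 62.6 in the solvent culture and 121 in A375+VEM. A375+VEM was the highest, 1.94-fold above A375+DMSO (1.85 to 2.04) and 2.78-fold above A375P (2.63 to 2.93). A375R and A375+DMSO were alike within counting error, at a ratio of 1.04 (0.987 to 1.10). Against A375P, A375R was at 1.49-fold, just short of the threshold. ADAM17, which releases TNF and ligands of the EGF receptor, took a flatter course, with a TPM of 40.1, 53.0, 51.0 and 66.2 in the same order. It was 1.30-fold above A375+DMSO in A375+VEM (1.22 to 1.38), short of the threshold, and 1.65-fold higher than in A375P (1.55 to 1.76).

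ADAM9, a widely expressed sheddase, ran the other way from ADAM10 in A375+VEM. Its TPM was 74.2 in A375P, 95.8 in A375R, 84.4 in the solvent culture and 49.2 in A375+VEM, which was the lowest. The ratio of A375+VEM was 0.584 to A375+DMSO (0.549 to 0.621) and 0.664 to A375P (0.623 to 0.707), the second just past the threshold. ADAM15, whose disintegrin domain binds integrins, had a TPM of 87.6, 101, 133 and 89.5 in the same order. It stood out in A375+DMSO, at 1.52-fold over A375P (1.44 to 1.60), while A375+VEM and A375P were alike within counting error (ratio 1.02, 0.966 to 1.08).

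The other ADAMs with an active site were low. ADAM8, best known from immune cells, had 140 reads in A375P, 79 in A375R, 70 in the solvent culture and 116 in A375+VEM. It was lower in A375R than in A375P, at a ratio of 0.625 (0.468 to 0.829), and 1.67-fold above A375+DMSO in A375+VEM (1.23 to 2.28). With the controls exchanged both differences were within counting error, at 1.17 (0.834 to 1.63) and 0.894 (0.693 to 1.15). ADAM12, or meltrin alpha, which cuts insulin-like growth factor binding proteins, had 49, 100, 133 and 182 reads in A375P, A375R, A375+DMSO and A375+VEM. It was lowest in A375P, 2.26-fold below A375R (1.59 to 3.25), whereas A375R and A375+DMSO did not differ beyond counting error (0.777, 0.593 to 1.01). ADAM21, a gene of the testis, had 9, 2, 13 and 43 reads and was 3.33-fold above A375+DMSO in A375+VEM (1.76 to 6.75). Its neighbour ADAM20, 62455 bases away on chromosome 14, had 2 to 6 reads. ADAM28, ADAM30 and ADAMDEC1 did not exceed 2 reads in any library, and ADAM33 did not exceed 5.

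Among the ADAMs without an active site, ADAM11, ADAM22 and ADAM23 were detected, all best known from the nervous system, where ADAM22 and ADAM23 are receptors of the secreted protein LGI1. ADAM23 had 165 reads in A375P, 277 in A375R, 614 in the solvent culture and 1474 in A375+VEM, or a TPM of 3.09, 5.75, 12.3 and 29.8. Each step of this order was larger than counting error. It was 2.42-fold above A375+DMSO in A375+VEM (2.20 to 2.66) and 9.64-fold higher than in A375P (8.20 to 11.4). A375R was 1.86-fold above A375P (1.53 to 2.27) but at a ratio of 0.466 to A375+DMSO (0.403 to 0.538). ADAM11 had 65, 61, 156 and 157 reads in A375P, A375R, A375+DMSO and A375+VEM. It split the libraries into 2 pairs, with A375P and A375R alike within counting error (ratio 1.04) and A375+DMSO and A375+VEM likewise (ratio 1.01). ADAM22 had 219, 297, 416 and 469 reads in that order and was 2.04-fold higher in A375+DMSO than in A375P (1.72 to 2.41). Of the rest, ADAM2, ADAM7 and ADAM18 did not exceed 1 read, ADAM29 had at most 5 and ADAM32 at most 15. ADAM32 lies 2267 bases from ADAM9 on chromosome 8, and had 10, 4, 3 and 15 reads where ADAM9 had 2606, 3040, 2765 and 1603.

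The ADAMTS proteases that cut hyalectans, the family of aggrecan, versican and brevican, had the largest ratio between their highest and lowest summed TPM among the subfamilies, though not the largest difference in TPM. Their sum was 6.39 in A375P, 36.6 in A375R, 19.1 in the solvent culture and 80.4 in A375+VEM. A different gene stood behind the high value in A375R and in A375+VEM, ADAMTS4 in the first and ADAMTS15 in the second.

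ADAMTS4, an aggrecanase of cartilage, lies on chromosome 1 from 161159519 to 161168843 on hg19. ADAMTS4 had 35 reads in A375P, 859 in A375R, 295 in the solvent culture and 193 in A375+VEM, a TPM of 0.939, 25.5, 8.48 and 5.59. The order of the libraries was that of ADAM19, with A375R 27.2-fold above A375P (19.4 to 39.3). A375R was 3.01-fold above A375+DMSO (2.63 to 3.44), and A375+DMSO was 9.03-fold above A375P (6.35 to 13.2). A375+VEM was at a ratio of 0.659 to A375+DMSO (0.547 to 0.793) but 5.95-fold above A375P (4.14 to 8.79). Of the TPM of all ADAMTS proteases, ADAMTS4 held 25.1% in A375R, 12.6% in A375+DMSO, 4.01% in A375+VEM and 2.42% in A375P.

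ADAMTS15 lies on chromosome 11 from 130318869 to 130346540 on hg19. ADAMTS15 had 19 reads in A375P, 104 in A375R, 102 in the solvent culture and 3041 in A375+VEM, a TPM of 0.391, 2.37, 2.25 and 67.5. A375+VEM stood alone at the top, 30.0-fold above A375+DMSO (24.6 to 36.9) and 173-fold above A375P (110 to 287). A375R and A375+DMSO did not differ beyond counting error (1.05, 0.794 to 1.40), so the 6.06-fold difference of A375R from A375P (3.69 to 10.5) was matched by the solvent culture, at 5.75-fold (3.50 to 9.95). In A375+VEM it held 48.4% of the TPM of all ADAMTS proteases. ADAMTS8, its neighbour 19980 bases away on the other strand, had 6, 1, 5 and 18 reads in the same order and stayed below a TPM of 1.

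The remaining hyalectan-cleaving genes were low. ADAMTS1, an aggrecanase and versicanase, had 62 reads in A375P and 145, 150 and 151 in A375R, A375+DMSO and A375+VEM, so that A375P alone stood apart. ADAMTS20, known from pigment cell migration in the mouse, had 42, 126, 113 and 73 reads in A375P, A375R, A375+DMSO and A375+VEM. It was 3.32-fold above A375P in A375R (2.33 to 4.83), and A375R and A375+DMSO did not differ beyond counting error (ratio 1.15). ADAMTS9, which also cuts versican, had 146, 103, 98 and 54 reads and was lowest in A375+VEM, at a ratio of 0.555 to A375+DMSO (0.390 to 0.781) and 0.399 to A375P (0.287 to 0.549). The antisense genes ADAMTS9-AS1 and ADAMTS9-AS2 overlap ADAMTS9, with counting by strand not stated, and had 0 to 7 reads. ADAMTS5, the other main aggrecanase of cartilage, had 12, 2, 3 and 11 reads.

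ADAMTS7 and ADAMTS12 both cut COMP, the cartilage oligomeric matrix protein, and are closest to each other in structure. They took opposite courses under acute vemurafenib. ADAMTS7 had 230 reads in A375P, 494 in A375R, 447 in the solvent culture and 1462 in A375+VEM, a TPM of 4.86, 11.6, 10.1 and 33.3. It was 3.29-fold above A375+DMSO in A375+VEM (2.96 to 3.67). In A375R it was 2.38-fold above A375P (2.03 to 2.79) but at 1.14 to A375+DMSO (1.00 to 1.30). ADAMTS12 had 1030, 2508, 1497 and 418 reads, a TPM of 13.4, 36.1, 20.8 and 5.86. Its ratio in A375+VEM was 0.281 to A375+DMSO (0.252 to 0.314) and 0.438 to A375P (0.390 to 0.491), and A375R was 1.73-fold above A375+DMSO (1.62 to 1.85) and 2.70-fold above A375P (2.51 to 2.90). ADAMTS12 was thus highest in A375R and lowest in A375+VEM. ADAMTS12 was the ADAMTS protease with the highest TPM in A375P, A375R and A375+DMSO, with 30.9% to 35.4% of their sum, and held 4.21% in A375+VEM. ADAMTS7 has pseudogene copies, so its counts are less certain. Of 3 such copies in the table ADAMTS7P3 had 3, 6, 8 and 17 reads and the other 2 had 0.

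**Figure D3:**
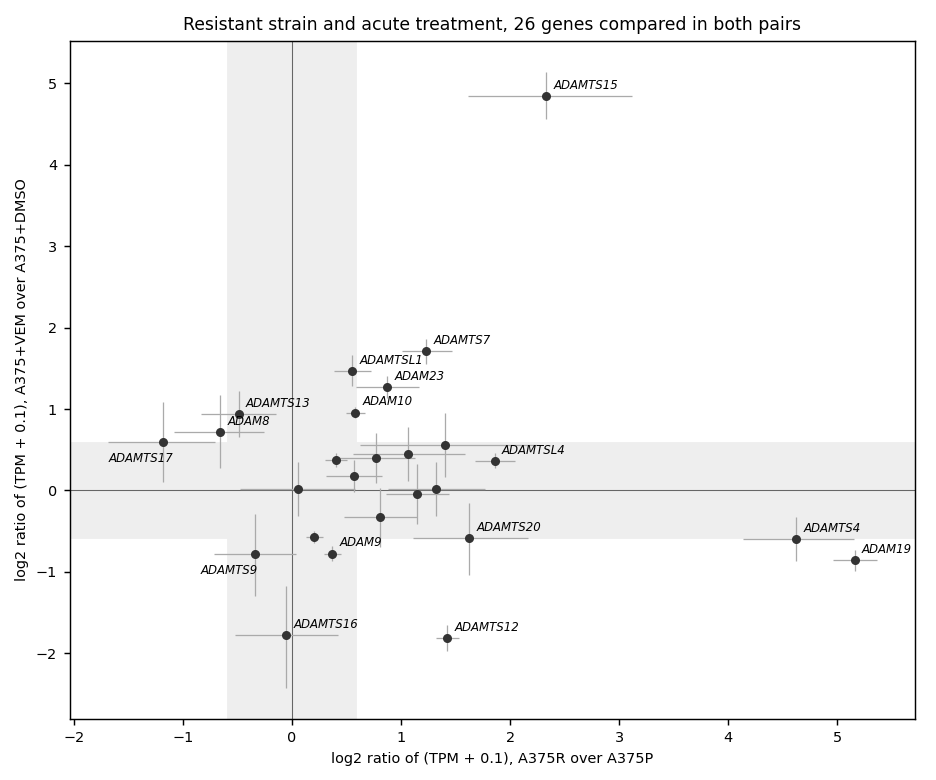
Log2 ratio of (TPM + 0.1) in A375R over A375P (horizontal) and A375+VEM over A375+DMSO (vertical) for the 26 genes compared in both pairs, with bars for the 95% counting intervals and the bands within 1.5-fold in grey. ADAM19 and ADAMTS4 lie far right and below the horizontal band, ADAMTS4 only just, while ADAMTS15 is highest and ADAMTS12 lowest.

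The other ADAMTS proteases were at a TPM of 7.57 or less in every library. ADAMTS6, which with ADAMTS10 acts on fibrillin microfibrils, had 150, 307, 131 and 126 reads in A375P, A375R, A375+DMSO and A375+VEM. A375R stood alone, 2.27-fold above A375P (1.86 to 2.77) and 2.42-fold above A375+DMSO (1.97 to 2.99), while the other 3 did not differ beyond counting error. ADAMTS10 had 19, 51, 92 and 136 reads, a different order with A375P lowest and A375+VEM highest. ADAMTS13, the protease of von Willebrand factor, had 182, 116, 164 and 316 reads and was 1.94-fold above A375+DMSO in A375+VEM (1.60 to 2.36). ADAMTS3, which trims procollagen and activates the lymphatic growth factor VEGFC, had 122, 196, 152 and 119 reads and was 1.78-fold above A375P in A375R (1.41 to 2.25). Against A375+DMSO it was at 1.33 in A375R (1.07 to 1.66), short of the threshold. Its relatives ADAMTS2 and ADAMTS14 stayed below a TPM of 1, with at most 56 reads for ADAMTS2, in A375+DMSO, and 9 for ADAMTS14.

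ADAMTS16 had 84 reads in A375P, 73 in A375R, 110 in the solvent culture and 29 in A375+VEM, which was lowest, at a ratio of 0.265 to A375+DMSO (0.170 to 0.403) and 0.373 to A375P (0.235 to 0.574). ADAMTS17, a gene of inherited short stature and eye disease, had 133, 50, 59 and 91 reads in the same order. It was at a ratio of 0.416 in A375R to A375P (0.294 to 0.580) and 1.55-fold above A375+DMSO in A375+VEM (1.11 to 2.19). A375R and A375+DMSO did not differ beyond counting error for ADAMTS17 (0.875, 0.588 to 1.30), and against A375P the log2 ratio of A375+VEM was -0.42. ADAMTS18 had at most 6 reads and ADAMTS19 at most 15.

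Among the ADAMTS-like proteins, which have no protease domain, ADAMTSL4, a protein of fibrillin microfibrils in the eye, had the highest TPM in every library. ADAMTSL4 had 328 reads in A375P, 1083 in A375R, 1734 in the solvent culture and 2216 in A375+VEM, a TPM of 8.65, 31.6, 49.0 and 63.1. The values ran in the order A375P, A375R, A375+DMSO, A375+VEM, with A375R 3.66-fold above A375P (3.23 to 4.15) but at a ratio of 0.645 to A375+DMSO (0.597 to 0.696). The antisense gene ADAMTSL4-AS1, which shares 43 bases with it, had 21, 32, 15 and 15 reads.

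ADAMTSL1, or punctin, took another course. It had 500, 665, 305 and 849 reads in A375P, A375R, A375+DMSO and A375+VEM, so A375+DMSO was the lowest, and A375+VEM was 2.80-fold above it (2.46 to 3.21). ADAMTSL3 had 62, 38, 122 and 27 reads, with A375+DMSO the highest, and was at a ratio of 0.223 in A375+VEM to A375+DMSO (0.141 to 0.340). ADAMTSL5 had 113, 176, 154 and 202 reads and ADAMTSL2 at most 7.

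**Figure D4:**
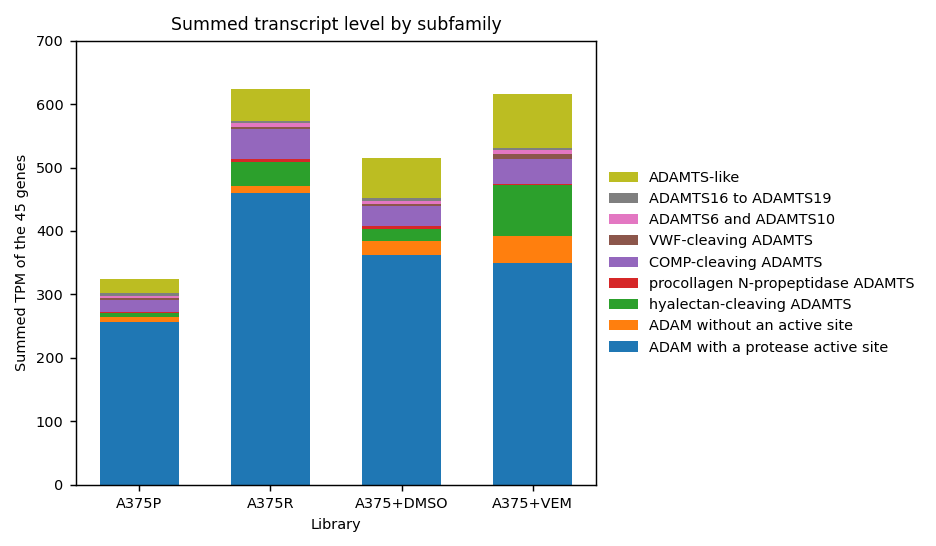
Summed TPM of the 45 genes in each library, stacked by subfamily from a baseline of 0. The total is 324 in A375P, 624 in A375R, 515 in the solvent culture and 617 in A375+VEM, and ADAMs with an active site form the largest part of each bar.

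By subfamily the ADAMs with an active site summed to a TPM of 256 in A375P, 460 in A375R, 362 in the solvent culture and 350 in A375+VEM. Those without one summed to 7.97, 11.7, 22.3 and 41.3, so they were highest in A375+VEM. The COMP-cleaving pair summed to 18.2, 47.6, 31.0 and 39.2, a sum that hides the opposite courses of its members in A375+VEM. The ADAMTS-like proteins summed to 21.7, 51.2, 62.6 and 86.0. ADAMTS proteases as a whole made up 12.0% of the family's TPM in A375P, 16.3% in A375R, 13.1% in the solvent culture and 22.6% in A375+VEM.

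Genes on which these proteases act, and 1 inhibitor, were described from a fixed list. Of 7 cell-surface substrates compared, 2 were higher and 0 lower in A375R against A375P, and of 3 matrix proteoglycans 2 and 0, beside 26.8% and 17.5% of all genes. With A375+DMSO as the control of A375R, 4 substrates were higher and 1 lower, and 1 proteoglycan each way, beside 10.5% and 9.99%. In A375+VEM against A375+DMSO, 2 substrates were higher and 2 lower, and 1 proteoglycan each way, beside 26.5% and 19.7%. In A375+DMSO against A375P, 2 substrates were higher and 2 lower, and 2 proteoglycans were higher and 1 lower, beside 26.8% and 18.9%. A2M, or alpha-2-macroglobulin, a secreted trap for proteases of many kinds that is also a liver product, had 93 reads in A375P, 209 in A375R, 473 in the solvent culture and 2969 in A375+VEM. A375+VEM was the highest, 6.32-fold above A375+DMSO (5.73 to 6.98), and A375+DMSO was itself 5.45-fold above A375P (4.36 to 6.88). The summed TPM of the hepatocyte genes, given above and mostly that of ALB, was highest in A375P, while AHSG was lowest there, at a TPM of 3.63 against 4.61 to 5.26 elsewhere, and their part in the level of A2M was not tested. ACAN, the aggrecan core protein, had 27, 198, 309 and 894 reads and was 2.91-fold above A375+DMSO in A375+VEM (2.56 to 3.33) and 35.7-fold higher than in A375P (24.4 to 54.5). BGN, or biglycan, was highest in A375+DMSO, with 444, 754, 1456 and 879 reads in A375P, A375R, A375+DMSO and A375+VEM, and BCAN, or brevican, had 1183, 866, 498 and 543.

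Among the few cell-surface substrates of ADAM10 and ADAM17, as over all genes, some were higher and others lower. AREG, or amphiregulin, a ligand of the EGF receptor that ADAM17 sheds, had 81 reads in A375P, 238 in A375R, 85 in the solvent culture and 1 in A375+VEM. The ratio of A375+VEM to A375+DMSO was 0.0118, with an interval from 0.000297 to 0.0678. BTC, or betacellulin, another such ligand, shed by ADAM10, had 45, 44, 15 and 102 reads and was 6.85-fold above A375+DMSO in A375+VEM (3.96 to 12.7). ALCAM, an adhesion molecule, had 1355, 1800, 1236 and 6179 reads and was 5.03-fold above A375+DMSO in A375+VEM (4.74 to 5.36). AXL, a receptor tyrosine kinase, had 27682, 21802, 14038 and 3596 reads and was lowest in A375+VEM, at a ratio of 0.258 to A375+DMSO (0.249 to 0.268). APP had a TPM of 237, 337, 404 and 539 and APLP2 one of 64.7, 102, 130 and 142 in A375P, A375R, A375+DMSO and A375+VEM, and neither passed 1.5-fold in the acute pair. Against A375P, A375+VEM was 2.28-fold higher for APP (2.22 to 2.34) and 2.19-fold higher for APLP2 (2.08 to 2.30). AGER had 22 to 48 reads.

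**Figure D5:**
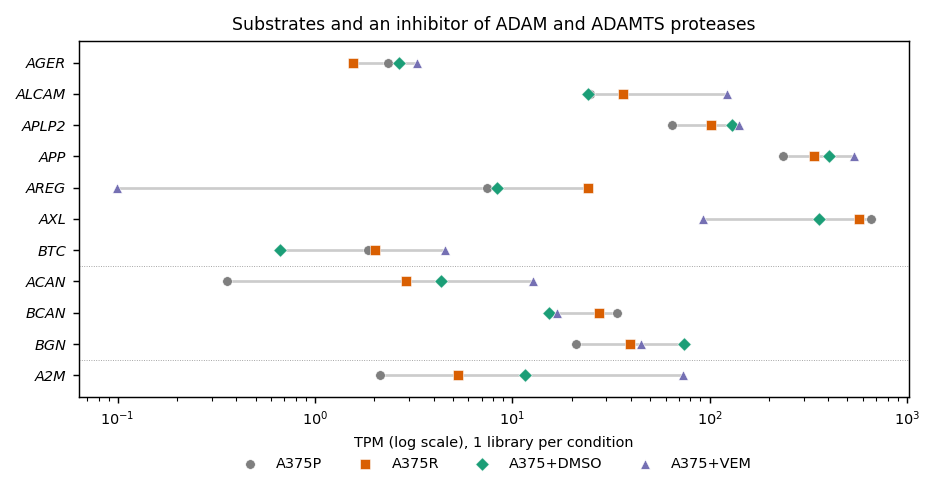
TPM (log axis) in the 4 libraries of 11 genes listed as substrates or an inhibitor of these proteases, with a grey line from the lowest to the highest value and dotted lines between cell-surface substrates, matrix proteoglycans and A2M. AREG and AXL are lowest in A375+VEM, whereas AGER, ALCAM, APLP2, APP, BTC, ACAN and A2M are highest there.

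Some members lie beside each other in the genome, in the authors' coordinates on hg19. There were 8 such pairs within 150000 bases. In none of them did both genes reach a TPM of 1. ADAMTS1 and ADAMTS5 lie 72502 bases apart on chromosome 21, with 62 to 151 reads for the first and 2 to 12 for the second. ADAMTS13 and ADAMTSL2 lie 72760 bases apart on chromosome 9, with 116 to 316 reads and 1 to 7. The remaining pairs, on chromosome 8, join ADAM28, ADAMDEC1 and ADAM7, and ADAM18 and ADAM2, whose genes did not exceed 2 reads.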

How the data were processed

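Each of the 4 conditions has 1 RNA library, and conditions were read from the sample labels. The authors deposited whole-number read counts without normalization and TPM, which corrects for gene length and library size. These TPM could be rebuilt from the counts and lengths up to 1 factor per library. The submitters' processing notes name HISAT2, TopHat2, Bowtie2 and HISAT and the build hg19, with no role or order. The counting program and its use of strand are not given in the sources used here. The table holds 2864 genes with values, and 1 incomplete row was left out. All 45 genes are in the GRCh38 annotation, but 0 share its start or end, and the deposited positions are used.

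The members and gene lists were chosen with earlier results of these data known. The members with a TPM of at least 1 in a library were named with their values in every library, and the others by their reads. Subfamilies, substrates and marker genes came from lists written from general knowledge. Of the substrates, 1 gene is not reported here. Pairs were compared by the ratio of (TPM + 0.1), with a threshold of 1.5-fold, over all genes of the table. With 1 library per condition no count test was fitted. The ratio step and the intervals were tested on simulated data. Alternative settings were the other control, 2-fold, no filter or a TPM minimum of 5, pseudocounts of 0.01 and 1, and rescaling by the median ratio. Both controls together was added after seeing the data. Sequences are RefSeq's, on GRCh38.p14. Ratios were made with pandas 2.3.3 and numpy 2.4.6 under Python 3.11.15, intervals with scipy 1.17.1 and plots with matplotlib 3.10.9.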

Additional observations from a re-analysis of the deposited data

Results flagged for a closer look

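Of the 26 genes compared in both pairs, 6 were past 1.5-fold in opposite directions in A375R against A375P and in A375+VEM against A375+DMSO, beside 12.1% of all genes compared in both. Whether the pairs differ was not tested, since each condition is 1 library. On the log2 scale of (TPM + 0.1), ADAM19 was at 5.16 in A375R and -0.86 in A375+VEM. ADAMTS4 was at 4.62 and -0.59, ADAMTS20 at 1.62 and -0.59, and ADAMTS12 at 1.42 and -1.81. The opposite order held for ADAM8, at -0.66 and 0.72, and for ADAMTS17, at -1.19 and 0.59. With the 2 controls exchanged ADAMTS12 kept both directions, at 0.79 in A375R and -1.18 in A375+VEM. The sign in A375+VEM was the other one for ADAM8, ADAM19, ADAMTS4, ADAMTS17 and ADAMTS20 with A375P as the control. ADAM23, ADAMTS7 and ADAMTS15 were past 1.5-fold in the same direction in both pairs, beside 10.1% of all genes. With A375+DMSO as the control of A375R none of these 3 was higher past 1.5-fold, with ADAM23 at -1.09, ADAMTS7 at 0.19 and ADAMTS15 at 0.07.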

How the results depend on the processing

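The counts of genes past 1.5-fold rest on the control and on low genes, and the causes were not tested except where an alternative admits fewer or more genes by construction. For A375R against A375P, 14 genes were above and 2 below. The other control gave 5 above and 5 below, both controls together 4 and 0, and a TPM of at least 5 gave 8 and 0. Below, there were 1 at a pseudocount of 1, 1 at 2-fold and 7 without a filter. For A375+VEM against A375+DMSO, with 9 above and 8 below, the other control gave 18 and 4, 2-fold gave 5 and 3, and no filter gave 17 above. Below, there were 5 at a pseudocount of 1, 4 at a TPM of at least 5 and 4 with both controls. For A375+DMSO against A375P, with 15 above and 3 below, a TPM of at least 5 gave 8 and 1, 2-fold gave 1 below and no filter 7 below. The other counts stayed within 1.5 times. The median ratio of all genes was 0.10, 0.11 and 0.09 (log2) in these 3 pairs.

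Among single genes called past 1.5-fold, only the other control turned a sign. Against A375+DMSO, A375R was at a log2 ratio of 0.21 for ADAM8, -0.34 for ADAM12, -1.09 for ADAM23, -0.0021 for ADAMTS1, -0.77 for ADAMTS10 and -0.63 for ADAMTSL4. Against A375P, A375+VEM was at -0.16 for ADAM8, 1.87 for ADAM19, 2.45 for ADAMTS4, 0.84 for ADAMTS20 and -0.42 for ADAMTS17. Pseudocounts and scaling to a median ratio of 1 reversed none. No paired analysis was possible because each condition is 1 library. Genes with few reads have wide intervals, and those below about 10 reads allow no statement of a difference.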

Other observations

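The 14 rows of other gene types with the same names were mostly at or near 0. ADAM1A, not listed as protein-coding, had 120 reads in A375P, 64 in A375R, 71 in the solvent culture and 87 in A375+VEM, a TPM of 4.93, 2.91, 3.13 and 3.86, so it was as abundant as several coding members. ADAM20P1 had 15, 3, 10 and 25 reads in the same order, highest in A375+VEM and lowest in A375R, as ADAM21 was. With 3 reads for ADAM20P1 and 2 for ADAM21 in A375R, that likeness allows no statement. ADAM20P1 lies between ADAM21 and ADAM20 on chromosome 14. Reads of near-identical copies could be split between them by the counting. Whether this holds for any of these genes was not tested.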
